A study of Homo sapiens with 6 samples.

Results

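The genes described here are the poly(ADP-ribose) polymerases (PARPs) outside the interferon-induced group, the tankyrases, and the glycohydrolase PARG. They are 10 genes, PARP1, PARP2, PARP3, PARP4, PARP6, PARP8, PARP16, PARG, TNKS, and TNKS2, of 12308 genes listed in the table, and all 10 were among the 11766 genes tested. The genes were chosen by symbol, and the group was selected on earlier results of these same libraries, in which PARP1 stood out as higher in OVCAR5R. The values of the 10 genes in OVCAR5R against OVCAR5 are therefore given as a description, with no test.

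Total RNA was sequenced from triplicate cultures of the parental line OVCAR5 (high-grade serous ovarian cancer cells, BRCA wild type; 3 libraries) and of OVCAR5R (3 libraries), which was derived from it and is resistant to the CHK1 inhibitor (CHK1i) prexasertib (Prex). To obtain OVCAR5R, the Prex dose was raised stepwise to a maximum of 3 µM, which took 3 to 4 months, and the resistant cells then stayed on 2 µM. The drug had been withdrawn 4 days or longer when cells were used. OVCAR5 went through no such selection. Only 1 resistant derivative was sequenced, so drug selection, drift, and any clonal origin of the derivative cannot be told apart. Separate cultures of a cell line are the replicates, and p-values measure the spread between these cultures.

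PARPs use NAD+ to attach ADP-ribose to proteins and nucleic acids. PARP1 and PARP2 bind broken DNA and build chains of poly(ADP-ribose) (PAR) that recruit repair factors such as XRCC1. PARP3 also acts at DNA breaks but adds single ADP-ribose units, as do PARP6, PARP8, and PARP16. PARG cuts the chains. PARP1 and PARP2 are the targets of the PARP inhibitors used in ovarian cancer, and PARP1 is the most abundant nuclear PARP in most cells.

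The promoters of PARP1, PARP2, and PARP3 are shown because these genes encode the PARPs that respond to DNA breaks, and because the values of PARP1 and PARP2 had higher means in OVCAR5R and those of PARP3 a lower mean. Each run is read 5′ to 3′ on the strand of the gene, lies upstream of the transcription starts of RefSeq and of GENCODE release 29, and was taken from RefSeq (GRCh38.p14). Capitals mark matches, on either strand, to a GC box (GGGCGG), an ETS site (with letters CCGGAAG), or an octamer (ATGCAAAT). The PARP1 run is chr1:226408094-226408343 (minus strand), the PARP2 run is chr14:20343385-20343581 (plus strand), and the PARP3 run is chr3:51942113-51942344 (plus strand).
PARP1: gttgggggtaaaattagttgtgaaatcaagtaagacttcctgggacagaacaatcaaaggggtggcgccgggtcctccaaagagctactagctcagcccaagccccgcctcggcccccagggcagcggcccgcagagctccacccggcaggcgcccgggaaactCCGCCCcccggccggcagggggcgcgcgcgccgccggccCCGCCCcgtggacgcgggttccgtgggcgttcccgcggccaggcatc
PARP2: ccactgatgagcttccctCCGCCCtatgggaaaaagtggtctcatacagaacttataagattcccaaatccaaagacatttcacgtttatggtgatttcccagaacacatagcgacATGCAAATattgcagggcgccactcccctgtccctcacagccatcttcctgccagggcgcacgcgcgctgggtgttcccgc
PARP3: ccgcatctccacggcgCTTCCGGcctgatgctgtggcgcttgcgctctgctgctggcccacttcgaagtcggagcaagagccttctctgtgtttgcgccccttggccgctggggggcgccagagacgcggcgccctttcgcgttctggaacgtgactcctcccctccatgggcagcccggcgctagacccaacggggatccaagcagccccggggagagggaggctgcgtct

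Over the 250 bases upstream of the RefSeq start, PARP1 had GC box matches beginning 86 and 47 bases before the start, and a GC content of 70.4%. PARP2 had a GC content of 54.4%, a GC box 232 bases before the start, the octamer 134 bases before it, and a match to the cAMP response element (TGACGTCA) 14 bases before it, past the end of the run printed above. PARP3 had a GC content of 68.4% and the ETS letters 234 bases before the start. Over all 35116 RefSeq promoter windows of this length, 42.6% held a GC box, 32.01% a CCAAT box, 10.7% a TATA box, 8.52% the ETS letters, 1.65% the cAMP response element, and 1.63% the octamer, and the median GC content was 58%. Searches for a TATA box (TATAAA), for the letters of a CCAAT box, and for 4 spellings of an E2F site, found no match in these 3 windows. The spellings were TTTCCCGC for the first, TTTCGCGC for the second, TTTGCCGC for the third, and TTTGGCGC for the fourth. The 4 E2F spellings were in 2.79% of all windows. The PARP2 window shares its first 27 bases with RPPH1, the gene of the RNA subunit of RNase P, which is read from the opposite strand and begins 223 bases from the RefSeq start of PARP2. The GC box capitalized in the PARP2 run lies within RPPH1. Of the 10 genes, 8 had a promoter entry, PARP4 and TNKS had none, and PARP8 had 3. GC boxes were also found upstream of PARP6, PARP16, and 1 of the 3 starts of PARP8. CCAAT boxes were found upstream of PARG and of another PARP8 start. These matches describe letters only.

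The deposited values summed to between 937274 and 1038240 per library, and 1 estimated read was worth 0.0244 to 0.0290 of them in OVCAR5 and 0.0181 to 0.0189 in OVCAR5R, which was thus the more deeply sequenced line. For the 10 genes, a value rested on at least 420 estimated reads (PARP8) and at most 16079 (PARP1). OVCAR5 replicate 2 stood apart. On the first principal component, with 45.5% of the variance, this library scored 72.0 and the other 5 between -34.6 and 10.6, and its KRT19, an epithelial keratin, was at 1341 against 3.09 to 10.7 in the others. PAX8, a marker of ovarian epithelium, had low values in every library, at 8.38 to 11.4 in OVCAR5 and 4.38 to 5.66 in OVCAR5R. KRT8 was at 1031 to 7772 in OVCAR5 and 1685 to 2103 in OVCAR5R. KRT18 was at 1108 to 6196 in OVCAR5 and 1398 to 1992 in OVCAR5R. KRT7 spanned 85.8 to 939 within OVCAR5 and 431 to 583 within OVCAR5R, and EPCAM 11.9 to 597 and 16.3 to 31.7. The highest value of these 4 genes was in OVCAR5 replicate 2. The epithelial markers CDH1 and MUC16 were not listed. Of 8 markers of immune, endothelial, and fibroblast cells, 2 were listed, CD68 and COL1A1. Their summed value was 48.6 to 69.6 in OVCAR5 and 76.6 to 81.8 in OVCAR5R. Most of it was CD68, at 40.7 to 68.3 in OVCAR5 and 70.4 to 72.8 in OVCAR5R, without overlap. COL1A1 overlapped, at 1.29 to 15.2 in OVCAR5 and 5.05 to 9.03 in OVCAR5R. The part of these differences in the results below was not tested.

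Levels were compared between genes per kb of the principal transcript, since the deposited values are not divided by length. In OVCAR5, PARP4 and PARP1 were the most abundant, with values per kb of 40.9 ± 13.0 and 40.7 ± 7.24 (SD, n = 3 each here and below), followed by PARP2 with 28.4 ± 4.03. PARP3 (10.2 ± 2.71), TNKS2 (9.76 ± 4.00), and PARP6 (9.74 ± 2.82) did not differ from each other beyond their spread. PARG (6.05 ± 0.483) and PARP16 (5.64 ± 0.758) were within their spread as well, and TNKS (2.49 ± 1.02) and PARP8 (1.99 ± 0.448) were lowest. In OVCAR5R, PARP1 was first with 68.8 ± 7.37 per kb, above PARP2 with 36.1 ± 6.36 and PARP4 with 29.2 ± 2.63, which met within their spread. PARP6, TNKS2, PARP3, PARG, PARP16, TNKS, and PARP8 followed in that order from 10.0 ± 2.39 to 1.42 ± 0.418 per kb. Neighbors in this order from PARP6 to PARP16 met within their spread, whereas TNKS lay below PARP16 and PARP8 below TNKS. At the top of the order, the mean of PARP4 was level with that of PARP1 in OVCAR5 and below it in OVCAR5R. PARP1 was chosen for being higher in OVCAR5R, and the PARP4 values overlapped between the lines, so nothing is read from this order.

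**Figure D1:**
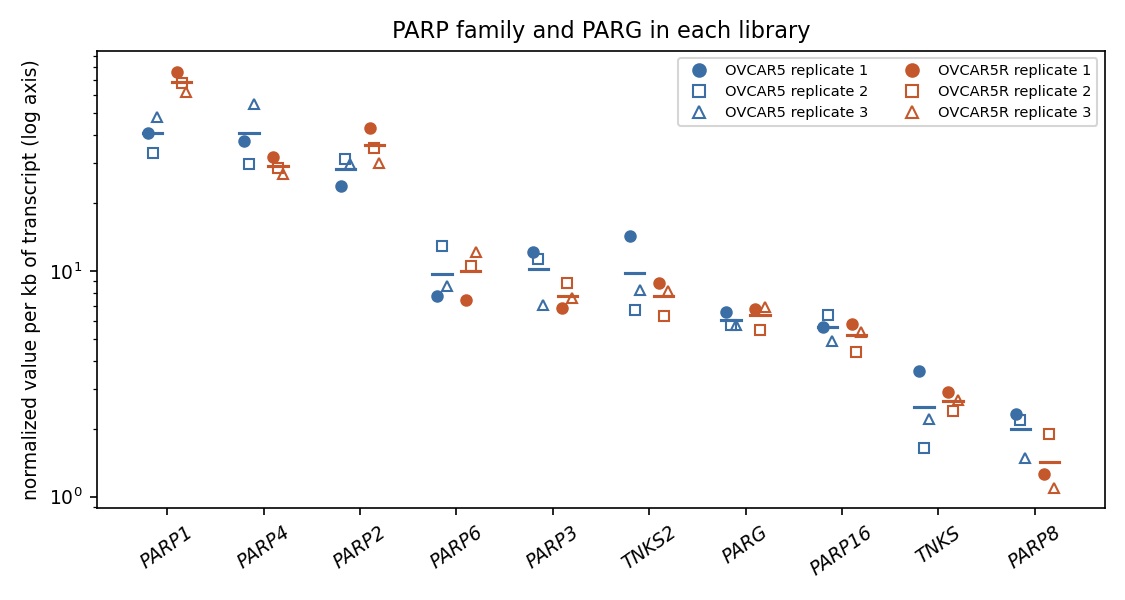
Normalized value per kb of principal transcript (log axis) for the 10 genes in each of the 6 libraries, with symbols for replicates and short lines for the mean of each cell line. PARP1 in OVCAR5R sits at the top of the plot, PARP4 and PARP2 follow, and TNKS and PARP8 are lowest in both lines.

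PARP1, the main PAR-forming enzyme at DNA breaks, lies on chromosome 1 of GRCh38 from 226360691 to 226408079 (minus strand, 23 exons in the principal transcript). OVCAR5 replicates 1, 2, and 3 had normalized PARP1 values of 161, 133, and 190, against 303, 269, and 245 for OVCAR5R replicates 1, 2, and 3. The lowest OVCAR5R culture was thus above the highest OVCAR5 culture, and the lines did not overlap. The OVCAR5 mean was 161 ± 28.7 and the OVCAR5R mean 272 ± 29.2 (SD, n = 3 each), and on the log2(value + 1) scale OVCAR5R minus OVCAR5 came to 0.76 with a standard error of 0.21. PARP1 ranked 428 of 11766 genes by log2 fold change, and 3.63% of the genes tested had a higher one. No other member of the group of 10 was free of overlap between the lines, so the count was 1 higher and 0 lower. Over all genes tested, 8.4% were higher in OVCAR5R without overlap and 8.18% were lower. No reading is taken from this count, since PARP1 was chosen for it. GENCODE has 2 processed pseudogenes of PARP1, neither of them listed in the table. Without OVCAR5 replicate 2, the library with the lowest PARP1 value, the log2 fold change was 0.63. Proliferation genes are given beside it, because PARP1 is well expressed in dividing cells. Their summed value was 1543 to 2698 in OVCAR5 and 2044 to 3068 in OVCAR5R, and 5 of 8 were higher by their mean and 3 lower.

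PARP2, the closest relative of PARP1 in DNA repair, lies on chromosome 14 from 20343582 to 20357905 (plus strand). Its values were 44.9, 59.3, and 56.4 in the OVCAR5 replicates and 80.8, 66.0, and 57.1 in the OVCAR5R replicates. The ranges met, with OVCAR5R replicate 3 below OVCAR5 replicate 2. The log2 fold change was 0.33 (standard error 0.22). It was 0.41 without OVCAR5 replicate 2, when the lines no longer overlapped, but 0.22 without OVCAR5 replicate 1 and 0.20 without OVCAR5R replicate 1. PARP3, which joins PARP1 at DNA double-strand breaks and lies on chromosome 3 from 51942345 to 51948867 (plus strand), went the other way by its mean. Its values were 29.96, 27.9, and 17.5 in OVCAR5 and 17.0, 21.8, and 18.8 in OVCAR5R (log2 fold change -0.34, standard error 0.26). OVCAR5 replicate 3 lay within the OVCAR5R range, so that the lower mean came from replicates 1 and 2. The difference was -0.20 without OVCAR5 replicate 1 and -0.57 without OVCAR5 replicate 3.

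PARP4, the PARP of the vault, a large ribonucleoprotein particle of the cytoplasm, lies on chromosome 13 from 24420926 to 24512810 (minus strand). Its values were 206, 163, and 303 in OVCAR5 and 176, 157, and 147 in OVCAR5R. The OVCAR5 cultures were spread over a 1.85-fold range and the OVCAR5R cultures over a 1.19-fold range, with OVCAR5 replicate 2 inside the latter. The log2 fold change was -0.44 (standard error 0.26). It was -0.64 without OVCAR5 replicate 2, when the lines did not overlap, but -0.20 without OVCAR5 replicate 3, the library with the highest PARP4 value. GENCODE lists 3 pseudogenes of PARP4 and an antisense pseudogene over its whole length, so its values are uncertain where the counting could not separate them.

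PARP6, PARP8, and PARP16, which add single ADP-ribose units, were at lower levels per kb than PARP1, PARP2, and PARP4. PARP8, on chromosome 5, had values of 16.6, 15.7, and 10.6 in OVCAR5 and 9.09, 13.6, and 7.88 in OVCAR5R, a log2 fold change of -0.46 (standard error 0.29). The fold change had the most negative value of the 10 genes, but OVCAR5R replicate 2 lay above OVCAR5 replicate 3. PARP6, on chromosome 15, had values of 22.04, 37.0, and 24.4 in OVCAR5 and 21.2, 30.0, and 34.7 in OVCAR5R. Both lines covered nearly the same range, the log2 fold change was 0.05 (standard error 0.28), and its sign turned with a library left out, to -0.10 without OVCAR5 replicate 1, -0.03 without OVCAR5 replicate 3, and -0.10 without OVCAR5R replicate 3, while it was 0.27 without OVCAR5 replicate 2. PARP16, an enzyme of the endoplasmic reticulum membrane that also lies on chromosome 15, had values of 15.4, 17.5, and 13.4 in OVCAR5 and 16.0, 12.0, and 14.7 in OVCAR5R, a log2 fold change of -0.11 (standard error 0.23) that lay between -0.20 and -0.0014 with each library left out in turn.

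The tankyrases attach PAR chains to proteins such as AXIN1 and TERF1 and so act in WNT signaling and at telomeres. TNKS, on chromosome 8, had values of 34.9, 15.8, and 21.2 in OVCAR5 and 28.1, 23.0, and 25.8 in OVCAR5R. TNKS2, on chromosome 10, had values of 88.0, 41.5, and 50.8 in OVCAR5 and 54.6, 38.9, and 50.2 in OVCAR5R. For both genes OVCAR5 replicate 1 was the highest of the 6 libraries, and the coefficient of variation among the OVCAR5 cultures was 41.0% and 40.9%, the largest of the 10 genes. The log2 fold changes were 0.16 (standard error 0.30) for TNKS and -0.26 (standard error 0.30) for TNKS2. Both signs turned with a library left out, to -0.09 for TNKS without OVCAR5 replicate 2 and to 0.05 for TNKS2 without OVCAR5 replicate 1. In the other direction, TNKS had 0.46 without OVCAR5 replicate 1 and TNKS2 had -0.49 without OVCAR5 replicate 2.

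PARG, the main enzyme that degrades PAR, lies on chromosome 10 from 49818279 to 49970203 (minus strand). Its values were 27.3, 23.9, and 23.8 in OVCAR5 and 28.0, 22.7, and 28.6 in OVCAR5R. PARG had the smallest spread in OVCAR5, a coefficient of variation of 7.97%. The OVCAR5 range, 23.8 to 27.3, lay within the OVCAR5R range, 22.7 to 28.6. The log2 fold change was 0.07 (standard error 0.20). With each library left out in turn this value was between 0.02 and 0.17. The annotated gene overlaps TIMM23B on the opposite strand over 28171 bases and has a pseudogene, PARGP1, on the same chromosome. The strand setting of the counting is not given in the sources used here, and reads of these genes could be shared.

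Counted together, 5 of the 10 genes had a higher and 5 a lower mean in OVCAR5R, and the median difference was -0.03 in log2 units, beside -0.01 over all genes tested. The limma fit left 0 of the 10 past an adjusted p of 0.05, beside 0.119% of all genes tested (14 of 11766). At an unadjusted p under 0.05 there was 1 gene, PARP1, higher in OVCAR5R, beside 4.14% of all genes higher and 6.25% lower. The rule that formed the group used this contrast, so nothing is read from these counts. The median SD between cultures of the 10 genes was 0.35 log2 units in OVCAR5 and 0.19 in OVCAR5R, beside 0.34 and 0.25 over all genes tested.

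**Figure D2:**
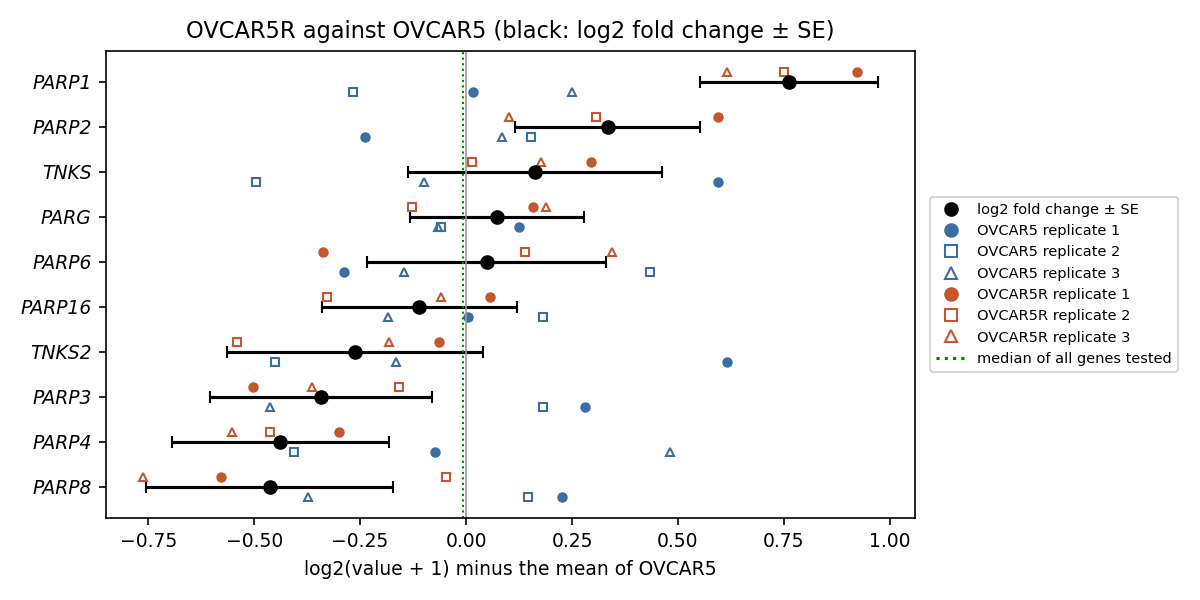
Log2(value + 1) of each library minus the OVCAR5 mean of that gene (x axis, log2 units), with the log2 fold change and its standard error in black and the median of all genes tested as a dotted line. PARP1 has its 3 OVCAR5R libraries to the right of its 3 OVCAR5 libraries, while the libraries of the other 9 genes are interleaved.

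Ratios within a library do not depend on the scaling of that library. They were chosen after the values were seen and are a description. The ratio of PARP1 to PARP4 per kb was 1.08, 1.12, and 0.868 in OVCAR5 and 2.38, 2.37, and 2.30 in OVCAR5R, with means of 1.03 ± 0.138 and 2.35 ± 0.0470 (SD, n = 3 each). In each line the cultures thus lay close together on this ratio, even though PARP4 itself varied in OVCAR5. PARP1 to PARP2 was 1.46 ± 0.346 in OVCAR5 and 1.92 ± 0.130 in OVCAR5R, and the lowest OVCAR5R culture, at 1.79, was just above the highest OVCAR5 culture, at 1.71. PARP1 to PARG, the synthesis gene against the degradation gene, was 6.76 ± 1.37 in OVCAR5 and 10.9 ± 1.74 in OVCAR5R, again with no overlap (8.33 and 8.94 at the border). TNKS2 to TNKS was 3.94, 4.09, and 3.75 in OVCAR5 and 3.03, 2.65, and 3.03 in OVCAR5R. The ratio of the tankyrases was therefore lower in each OVCAR5R culture, although the values of each of them overlapped between the lines. PARP1 to PARP3 had no overlap either (6.78 and 7.69 at the border). PARP2 to PARP3 did overlap, reaching up to 4.23 in OVCAR5 and down to 3.96 in OVCAR5R. The ratios with PARP1 carry its choice as a higher gene. The share of all gene pairs without overlap is not given here, so nothing is read from these ratios.

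Of the summed value per kb of the 9 PARP and tankyrase genes, PARP1 made up 24.6% to 28.97% in the OVCAR5 cultures and 39.6% to 41.4% in the OVCAR5R cultures. PARP4 made up 21.9% to 33.4% and 17.3% to 17.4%. The sum itself was 136 to 166 per kb in OVCAR5 and 156 to 185 per kb in OVCAR5R, which overlapped. PARP1 was chosen as a higher gene and is part of this sum, so nothing is read from the shares.

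**Figure D3:**
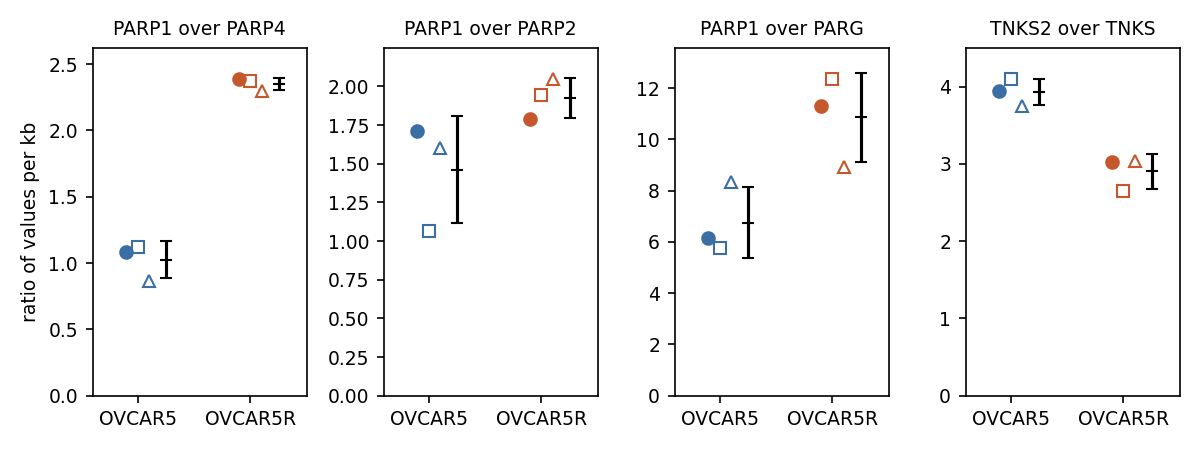
Ratio of the values per kb of 2 genes within each library (y axes start at 0), OVCAR5 in blue and OVCAR5R in orange, replicates 1, 2, and 3 as circles, squares, and triangles, and the mean ± SD of 3 cultures in black. PARP1 over PARP4 lies between 0.868 and 1.12 in OVCAR5 and between 2.30 and 2.38 in OVCAR5R, and TNKS2 over TNKS is lower in each OVCAR5R culture.

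Cultures of the same line also varied together for some pairs. After the mean of each line was subtracted, TNKS and TNKS2 had a Pearson's r of 0.98 over the 6 libraries and PARP1 and PARP4 one of 0.95, whereas PARP1 and PARP6 had -0.84 and PARP3 and PARP4 -0.83. These are the extremes of 45 pairs over 6 libraries that share their scaling, and they are descriptive. PARP1 and PARP2 had 0.27, and PARP1 and PARG 0.00. Without subtraction, the 5 genes whose pattern over the 6 libraries was most like that of PARP1 were NKRF, COIL, NUBPL, POLR3F, and C9orf40, with Pearson's r from 0.994 down to 0.988 and Spearman's rho of 0.94 or 1. An r of this kind rests on 6 libraries, and 73 of the 11765 other genes had an r of at least 0.95. The log2 fold changes of the 5 genes were 0.33 to 0.84.

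The 10 genes lie at 10 loci on 8 chromosomes, and the nearest tested genes of each, 10 on each side where the chromosome had them, were taken to describe the locus. The 20 neighbors of PARP1 spanned 2.71 Mb. Their median log2 fold change was 0.04, and 1 of the 20 had a higher value than PARP1. PARP1 was thus 0.72 above the median of its surroundings. It was chosen for being higher in this same contrast, so nothing is read from its place above its neighbors. The 14 neighbors of PARP2, among the first tested genes of its chromosome, had a median of 0.06, with 0.43, 0.13, and -0.15 in OVCAR5R replicates 1, 2, and 3 relative to the OVCAR5 mean. PARP2 itself followed the same order of replicates, with 0.60, 0.31, and 0.10. The neighbors of TNKS had a median of 0.38, 14 of 20 were higher by their mean, and 13 had a higher log2 fold change than TNKS (0.16). The neighbors of PARP8 had a median of -0.17 and ranged from -3.03 to 1.98, and 9 of 20 were below PARP8. TNKS2 was 0.42 below the median of its neighbors (0.15) and PARP4 was 0.38 below that of its own (-0.06). For PARP3, PARP6, PARP16, and PARG the medians were -0.02, -0.13, -0.05, and 0.15. Gene positions came from matching symbols and say nothing of the copy number in these cells, which was not measured.

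**Figure D4:**
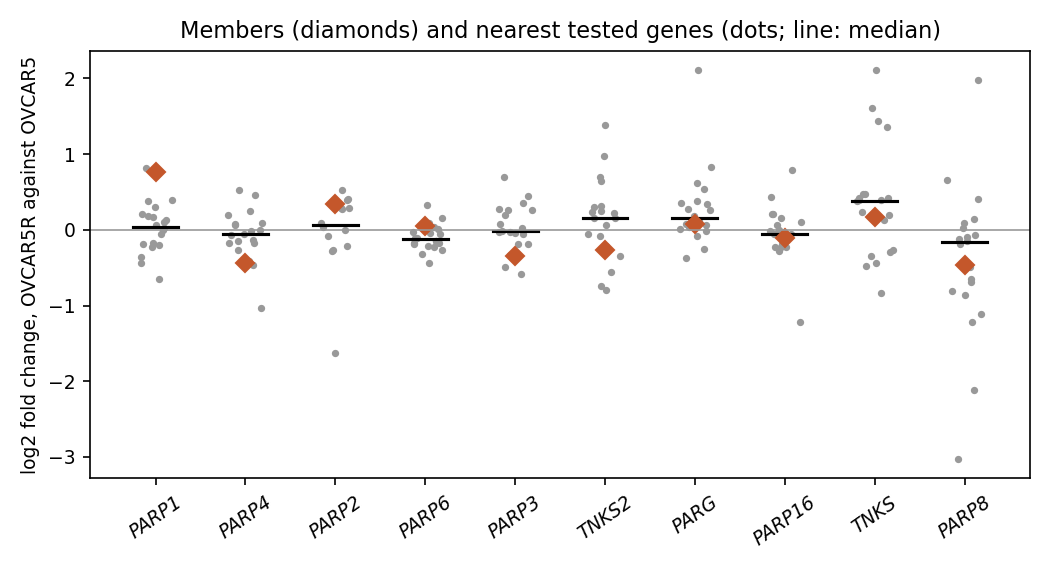
Log2 fold change in OVCAR5R against OVCAR5 (y axis) of each of the 10 genes (diamonds) and of the nearest tested genes on its chromosome (dots, with a line at their median, 0.04 for PARP1 and 0.38 for TNKS). The diamond of PARP1, a gene chosen for being higher in this contrast, lies above 19 of its 20 neighbors.

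The genes that work with PARPs were taken from 10 lists and were tested with limma over all genes. Together the lists held 80 different tested genes other than the 10 above. Of these, 0 had an adjusted p under 0.05 (the lowest was 0.306), and 5 had an unadjusted p under 0.05. The 3 higher genes were UNG, CASC3, and CHD1L (3.75%, beside 4.14% of all genes tested), and the 2 lower genes were MACROD1 and MVP (2.5%, beside 6.25%). The lines did not overlap for 7 genes that were higher (8.75%, beside 8.4% of all genes tested) and 6 that were lower (7.5%, beside 8.18%). These shares were close to or below those of all genes.

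Of the other PARPs, 7 of 8 were listed, most of them induced by interferon. Their median log2 fold change was -0.08, and 5 of 7 were lower by their mean. PARP14 had the lowest value, with 106, 124, and 73.3 in OVCAR5 and 41.8, 70.2, and 80.2 in OVCAR5R (log2 fold change -0.67, standard error 0.31, adjusted p = 0.494, limma), and PARP11 the highest (0.38, standard error 0.31). PARP14 had -0.39 without OVCAR5R replicate 1, and PARP11 had 0.10 without OVCAR5 replicate 3. The lines overlapped for all 7.

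HPF1, the cofactor with which PARP1 and PARP2 modify serines, had low values in both lines, which were not divided by transcript length. Its values were 7.06, 6.89, and 7.10 in OVCAR5 and 10.9, 9.45, and 8.46 in OVCAR5R, without overlap (log2 fold change 0.40, standard error 0.24, adjusted p = 0.594, limma). At these values the log2(value + 1) scale understates the change. Among 8 listed cofactor and ADP-ribose eraser genes the median was -0.16. MACROD1, which removes single ADP-ribose units, had values of 25.6, 59.9, and 37.6 in OVCAR5 and 17.1, 27.8, and 11.4 in OVCAR5R (log2 fold change -1.09, standard error 0.40, adjusted p = 0.401, limma), and OVCAR5R replicate 2 reached above OVCAR5 replicate 1. NUDT16, a hydrolase that can trim ADP-ribose, was lower without overlap (-0.29, standard error 0.20).

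Readers and partners of PAR had a median of 0.03 over 11 genes, and the lines overlapped for each of them. CHFR, a mitotic checkpoint ligase that binds PAR, had the highest value with 0.487, 5.50, and 0.786 in OVCAR5 and 3.13, 6.57, and 2.96 in OVCAR5R (log2 fold change 0.95, standard error 0.59), with 1.61 without OVCAR5 replicate 2 and 0.55 without OVCAR5 replicate 1. CHD1L, a PAR-activated chromatin remodeler named here after its values were seen, had 37.8, 22.9, and 62.9 in OVCAR5 and 85.5, 75.0, and 59.1 in OVCAR5R (log2 fold change 0.91, standard error 0.36, adjusted p = 0.432, limma), and 0.56 without OVCAR5 replicate 2. RNF146, the ligase that recognizes PAR made by tankyrases, had the lowest (-0.42, standard error 0.27, and -0.20 without OVCAR5R replicate 3).

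Single-strand break and base excision repair, the pathway that PARP1 serves, had a median of 0.22 over 20 genes, with 12 higher and 8 lower by their mean, beside -0.01 over all genes tested. The median was 0.14 without OVCAR5 replicate 1 or without OVCAR5R replicate 3. The study named base excision repair from gene set enrichment in these libraries and also in biopsies of patients without clinical benefit. The direction given here comes from the same libraries, so it is not independent evidence. UNG, the uracil glycosylase, had values of 49.1, 64.0, and 76.3 in OVCAR5 and 94.4, 90.0, and 97.6 in OVCAR5R (log2 fold change 0.59, standard error 0.22, adjusted p = 0.406, limma). APEX2, an abasic site endonuclease, and OGG1, the glycosylase for oxidized guanine, had log2 fold changes of 0.48 (standard error 0.23) and 0.48 (standard error 0.24), which were 0.30 for APEX2 without OVCAR5 replicate 1 and 0.30 for OGG1 without OVCAR5 replicate 2. These 3 genes were higher without overlap. POLB, the gap-filling polymerase, had the lowest value of the list, with 27.9, 39.0, and 26.3 in OVCAR5 and 32.9, 9.90, and 8.83 in OVCAR5R (log2 fold change -1.04, standard error 0.46, adjusted p = 0.489, limma), so that OVCAR5R replicate 1 stayed in the range of OVCAR5 (-1.61 without it). In theta-mediated end joining, a PARP1-dependent route of break repair, the median was 0.20 over 6 genes but 0.06 without OVCAR5 replicate 2, and MRE11 was higher without overlap (0.18, standard error 0.19). The highest of these 6 was LIG3 (0.34, standard error 0.21, and 0.22 without OVCAR5R replicate 2) and the lowest NBN (-0.08, standard error 0.28).

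The NAD synthesis list had a median of -0.34 over 7 genes, and 6 were lower by their mean. All of them but NADK act in the supply of NAD+, the substrate of PARPs. NADK uses NAD+ instead, and the median of the list was the value of NADK itself. The median was -0.17 without OVCAR5 replicate 2 and -0.20 without OVCAR5R replicate 1. NADK, the NAD kinase, had values of 67.6, 79.6, and 63.5 in OVCAR5 and 44.8, 60.5, and 61.2 in OVCAR5R, without overlap (log2 fold change -0.34, standard error 0.21, adjusted p = 0.611, limma), and -0.20 without OVCAR5R replicate 1. NAMPT, the rate-limiting enzyme of NAD salvage, ranged from 135 to 231 in OVCAR5 and from 94.6 to 307 in OVCAR5R (0.00, standard error 0.42). QPRT had the lowest value (-0.82, standard error 0.65), which was -0.02 without OVCAR5 replicate 2, the library in which it was at 159 against 22.3 and 39.0 in the other OVCAR5 cultures. Of 6 other NAD consumers tested, SIRT5, a mitochondrial desuccinylase, was lower without overlap (-0.51, standard error 0.27, and -0.28 without OVCAR5 replicate 2). SIRT1 had the highest value (0.35, standard error 0.31), which was 0.07 without OVCAR5 replicate 2 and 0.66 without OVCAR5 replicate 1. The median of these 6 was -0.11.

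Substrates and partners of the tankyrases had a median of -0.11 over 12 genes. CASC3, of the exon junction complex, had values of 123, 95.3, and 147 in OVCAR5 and 192, 205, and 170 in OVCAR5R (log2 fold change 0.65, standard error 0.22, adjusted p = 0.372, limma). BLZF1, a Golgi protein, was also higher without overlap (0.36, standard error 0.21). NUMA1, a spindle pole protein, was lower without overlap, with 375, 394, and 268 in OVCAR5 and 234, 259, and 246 in OVCAR5R (-0.47, standard error 0.21, adjusted p = 0.493, limma). LNPEP had the lowest value (-0.61, standard error 0.43), between -1.11 and -0.33 with each library left out. MVP, the major protein of the vault that holds PARP4, had 290, 415, and 357 in OVCAR5 and 92.9, 249, and 147 in OVCAR5R, without overlap, and a log2 fold change of -1.21 (standard error 0.35). Its adjusted p of 0.306 (limma) was the lowest of the 80 genes. TEP1, another vault protein, had -0.26 (standard error 0.27), between -0.49 and -0.08 with each library left out. Among the proliferation genes, CCNA2 was lower without overlap (-0.55, standard error 0.25, and -0.34 without OVCAR5 replicate 3) and TOP2A had the highest value (0.53, standard error 0.37, and 0.15 without OVCAR5 replicate 2).

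**Figure D5:**
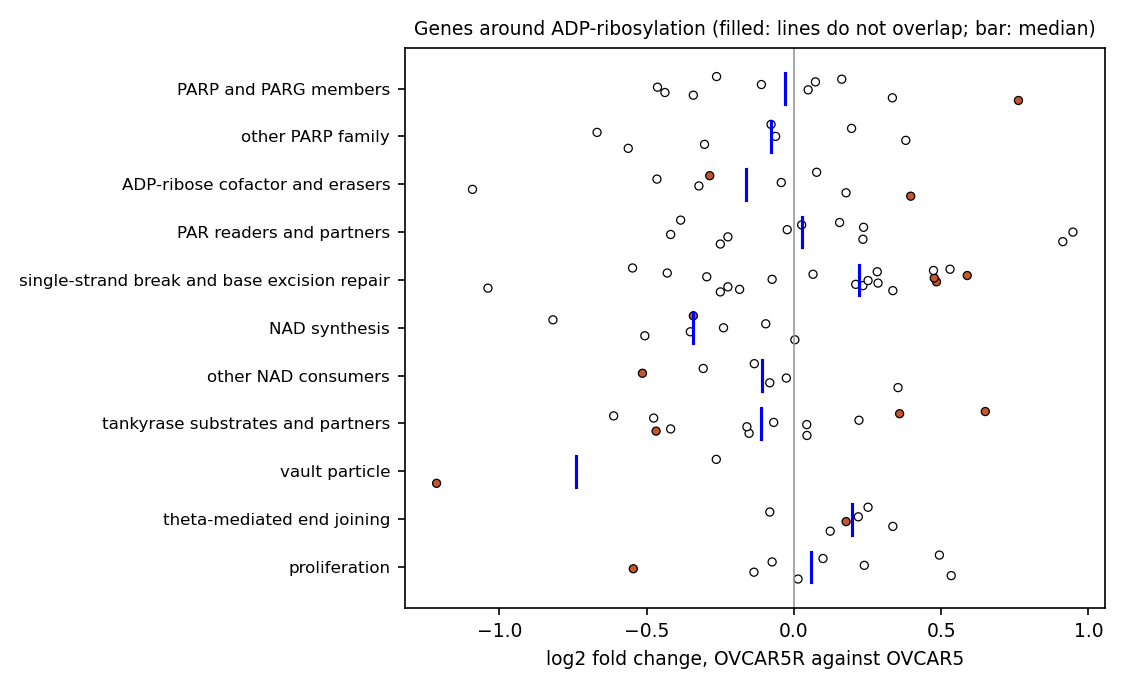
Log2 fold change in OVCAR5R against OVCAR5 (x axis) of each tested gene of the 10 lists and of the PARP and PARG genes (top row), with a bar at the median of each list and filled points where the 3 libraries of each line did not overlap. The medians lie between -0.74 (vault particle, 2 genes) and 0.22 (single-strand break and base excision repair).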

How the data were processed

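RNA-seq values of 6 libraries, 3 of OVCAR5 and 3 of OVCAR5R, were analyzed. The authors deposited a normalized signal per gene on a linear scale. Their methods speak of quartile normalization. The build is hg38 per the submitters' processing notes; the aligner, counter, and gene filter are not given in the sources used here. Between 62.1% and 67.1% of the values of a library were whole multiples (within 0.01) of its smallest step, so no count test was run. Estimated reads are values divided by that step. Of 12309 rows, a duplicate was dropped.

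Values were tested as log2(value + 1) by limma 3.58.1 in R 4.3.3 (trend, no covariates, two-sided p, Benjamini-Hochberg adjustment over all genes that reached 1 in 3 or more libraries). The fit was tested on simulated data. Gene positions and principal transcripts came from GENCODE release 29 on GRCh38, matched by symbol for 11679 genes tested (99.3%). Members and lists were chosen with earlier results of these data known. Of each list, genes with an adjusted p under 0.05, the highest, the lowest, and those without overlap were named. Alternatives were quantile normalization, median-of-ratios scaling, 2 filters, a pseudocount of 0.1, no trend, a replicate block, leaving out each library, and, added after seeing the data, 5 or 20 neighbors per side. Figures used matplotlib 3.10.9.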

Additional observations from a re-analysis of the deposited data

How the results depend on the processing

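PARP1 had a log2 fold change between 0.63 and 0.89 over 13 alternatives, and its lines did not overlap in any of them. Only quantile normalization and median-of-ratios scaling could have changed the latter. The other alternatives keep the order of the values, and leaving out a library cannot create an overlap. PARP1 was also chosen on this contrast. With a library left out, the number of the 10 genes that were higher without overlap was 1 to 2. The second was TNKS without OVCAR5 replicate 1, PARP2 without OVCAR5 replicate 2 or OVCAR5R replicate 3, and PARG without OVCAR5R replicate 2. Lower without overlap were PARP4 without OVCAR5 replicate 2 or OVCAR5R replicate 1, PARP8 without OVCAR5 replicate 3 or OVCAR5R replicate 2, and PARP3 without OVCAR5 replicate 3. Leaving out a library can only keep or raise the number of genes without overlap. The share over all genes tested is not given for these settings, so nothing is read from these counts. PARP2 and PARG kept a positive value and PARP3, PARP4, PARP8, and PARP16 a negative value in all 13 alternatives. PARP6 ranged from -0.10 to 0.27. The median of the 10 genes ranged from -0.12 to 0.03. Over all genes, 14 had an adjusted p under 0.05, with 5 under the replicate block and 0 to 24 with a library left out (0 without OVCAR5R replicate 3, where 858 had an unadjusted p under 0.05). None of the 10 genes and none of the 80 list genes passed in any alternative. Deviations of same-numbered cultures correlated across genes at -0.00398, 0.18, and -0.12. With 3 cultures per line, and OVCAR5 replicate 2 standing apart, these values cannot settle whether the replicate numbers pair the samples. The value of NAMPT, near 0, was -0.0073 under median-of-ratios scaling and ranged from -0.41 to 0.43 with a library left out, that of NBN from -0.38 to 0.072, and that of COL1A1 from -0.17 to 1.25. With a library left out, the list medians ranged from -0.25 to 0.05 for the other NAD consumers, from -0.27 to -0.06 for the cofactor and erasers, from -0.22 to -0.04 for the other PARPs, from -0.19 to -0.03 for the tankyrase substrates, from -0.02 to 0.09 for the PAR readers, and from 0.02 to 0.16 for proliferation. KRT7 had 2.44 without OVCAR5 replicate 2 (adjusted p = 0.0210, limma). The cause of these shifts was not tested.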
